A study of Mus musculus with 22 samples.

Results

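Chemokines are small secreted proteins that guide cells carrying the matching receptor, and 9 chemokine genes were followed in the hypothalamus of mice bearing a tumour in the leg. The 9 genes were Cxcl1, Cxcl9, Cxcl10, Cxcl12, Cxcl14, Cxcl16, Cx3cl1, Ccl2 and Ccl5, taken by name from the 18820 genes that had a probe set of their own on the arrays. Each gene was read from its own probe set with the highest mean. The rule lists genes by name, but the 9 were chosen with earlier results of these data known. Male C57BL/6 mice, with no genetic change named in the labels, were housed 1 per cage and fed a standard diet. At 6 weeks of age, 500000 Lewis lung carcinoma cells, from a transplantable mouse lung tumour, were injected into the hind leg muscle under anaesthesia. Hypothalami were taken under ketamine and xylazine on day 10 (5 arrays), day 14 (7 arrays) or day 17 (6 arrays) after inoculation, and on day 14 from controls (4 arrays). The labels give no injection for the controls, and the groups of days 10 and 17 had no control of their own day. The title of the series concerns food intake and serotonin signalling. The comparisons below ask which of these genes differed from control on each day, and which differed between days.

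Cxcl9 and Cxcl10 are ligands of Cxcr3, a receptor of activated T cells and NK cells, and interferon gamma is a classical inducer of both. Ccl5 binds Ccr1 and Ccr3, among other receptors, and is made by T cells, glia and other cells. Cx3cl1 and Cxcl16 are membrane-bound until cleaved. Cx3cl1 is made by neurons and read by microglia through Cx3cr1, and Cxcl16 is read through Cxcr6. Cxcl12, the ligand of Cxcr4 and Ackr3, and Cxcl14 are made without inflammation, whereas Cxcl1, a neutrophil attractant, and Ccl2, a monocyte attractant that binds Ccr2, are typically induced by interleukin 1 and tumour necrosis factor through NF-kappaB.

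Cxcl9 and Cxcl10 lie close together on chromosome 5, in the RefSeq order Sdad1, Cxcl9, Art3, Cxcl10 and Nup54 (GRCm38.p6). Their upstream sequences are shown because these were the 2 members that passed the test below. Each is the 250 bases before the RefSeq start, read 5′ to 3′ on the gene's strand, at chr5:92328080-92328329 (minus strand) for Cxcl9 and chr5:92348890-92349139 (minus strand) for Cxcl10. Capitals mark matches, on either strand, to the NF-kappaB consensus, to the core of the interferon-stimulated response element (GAAANNGAAA) or to the core of the gamma-activated site (TTCNNNGAA).
Cxcl9: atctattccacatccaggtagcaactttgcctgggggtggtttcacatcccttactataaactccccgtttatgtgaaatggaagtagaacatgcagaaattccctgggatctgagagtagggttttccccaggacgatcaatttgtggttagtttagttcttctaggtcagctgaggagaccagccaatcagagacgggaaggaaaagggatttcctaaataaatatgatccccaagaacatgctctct
Cxcl10: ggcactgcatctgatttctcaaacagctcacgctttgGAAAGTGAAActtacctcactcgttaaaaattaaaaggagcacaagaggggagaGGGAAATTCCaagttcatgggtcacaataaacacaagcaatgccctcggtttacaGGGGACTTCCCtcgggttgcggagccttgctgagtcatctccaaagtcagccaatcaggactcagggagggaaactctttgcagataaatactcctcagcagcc
The Cxcl10 window held 1 response element core, 213 to 204 bases before the start, and NF-kappaB matches at 159 to 150 and, overlapping each other, at 104 to 94 bases before it. The Cxcl9 window held no match to these letters. Among 32851 RefSeq windows of this length, 2.98% held the response element core, 7.25% the NF-kappaB consensus and 7.02% the gamma-activated core. RefSeq windows were also matched for Cxcl1, Cxcl12, Cxcl14 and Cx3cl1. That of Cxcl1 held overlapping NF-kappaB matches at 71 to 61 bases before the start, and that of Cxcl14 held the response element core at 172 to 163 and the gamma-activated core at 191 to 183. No match was present in the Cxcl12 and Cx3cl1 windows. These matches describe letters only, since the arrays did not measure binding.

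Values are log2 expression values from the deposited table, in which a difference of 1 is a doubling, and the error given with a group mean is its standard deviation (SD). Background was taken as 3.87, the 95th percentile of 1182 probe sets of smell receptors (olfactory and vomeronasal), which brain tissue hardly uses. Array medians ran from 5.27 to 5.34. Of 15 listed hypothalamus markers, 14 had a mean above background. The list mean was 7.71 ± 0.14 in controls and 7.60 ± 0.09, 7.81 ± 0.08 and 7.74 ± 0.09 on days 10, 14 and 17 (SD). From day 10 to day 14 all 15 changes were positive (median 0.25), and 0 were called. Against control, 0, 1 and 2 of these markers were called higher on days 10, 14 and 17, and 0 lower. The part of this shift in the chemokine results was not tested. Markers of the neighbouring thalamus differed between arrays, with a mean of 6.06 to 7.47 in controls and 5.96 to 7.05 over the tumour groups. Control replicates 1 and 3 were the highest of the controls, at 7.01 and 7.47, so the level of these markers moved with the groups. In whole tissue, a change in the share of cells of a type and a change in RNA per cell cannot be told apart.

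Of the 9 genes, 7 had a mean over the 22 arrays above background. Cx3cl1, Cxcl14, Cxcl12, Ccl5 and Cxcl16 were above it on all 22 arrays, and Cxcl10 on 21. Cxcl9 was above it on 16 arrays, none of them a control. Cxcl1 and Ccl2 lay near background, with 8 arrays and 1 array above it, so differences in these genes carry little information. Probe sets differ in their response, so their levels were not set against each other. The spread within groups also differed. The within-group SD of Cxcl9, 0.37, was larger than that of 98.9% of all genes, and those of Cxcl10 (0.28) and Cxcl16 (0.26) were larger than those of 96.7% and 95.2%. Cx3cl1 varied by 0.10 within groups, more than 26.3% of genes.

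**Figure D1:**
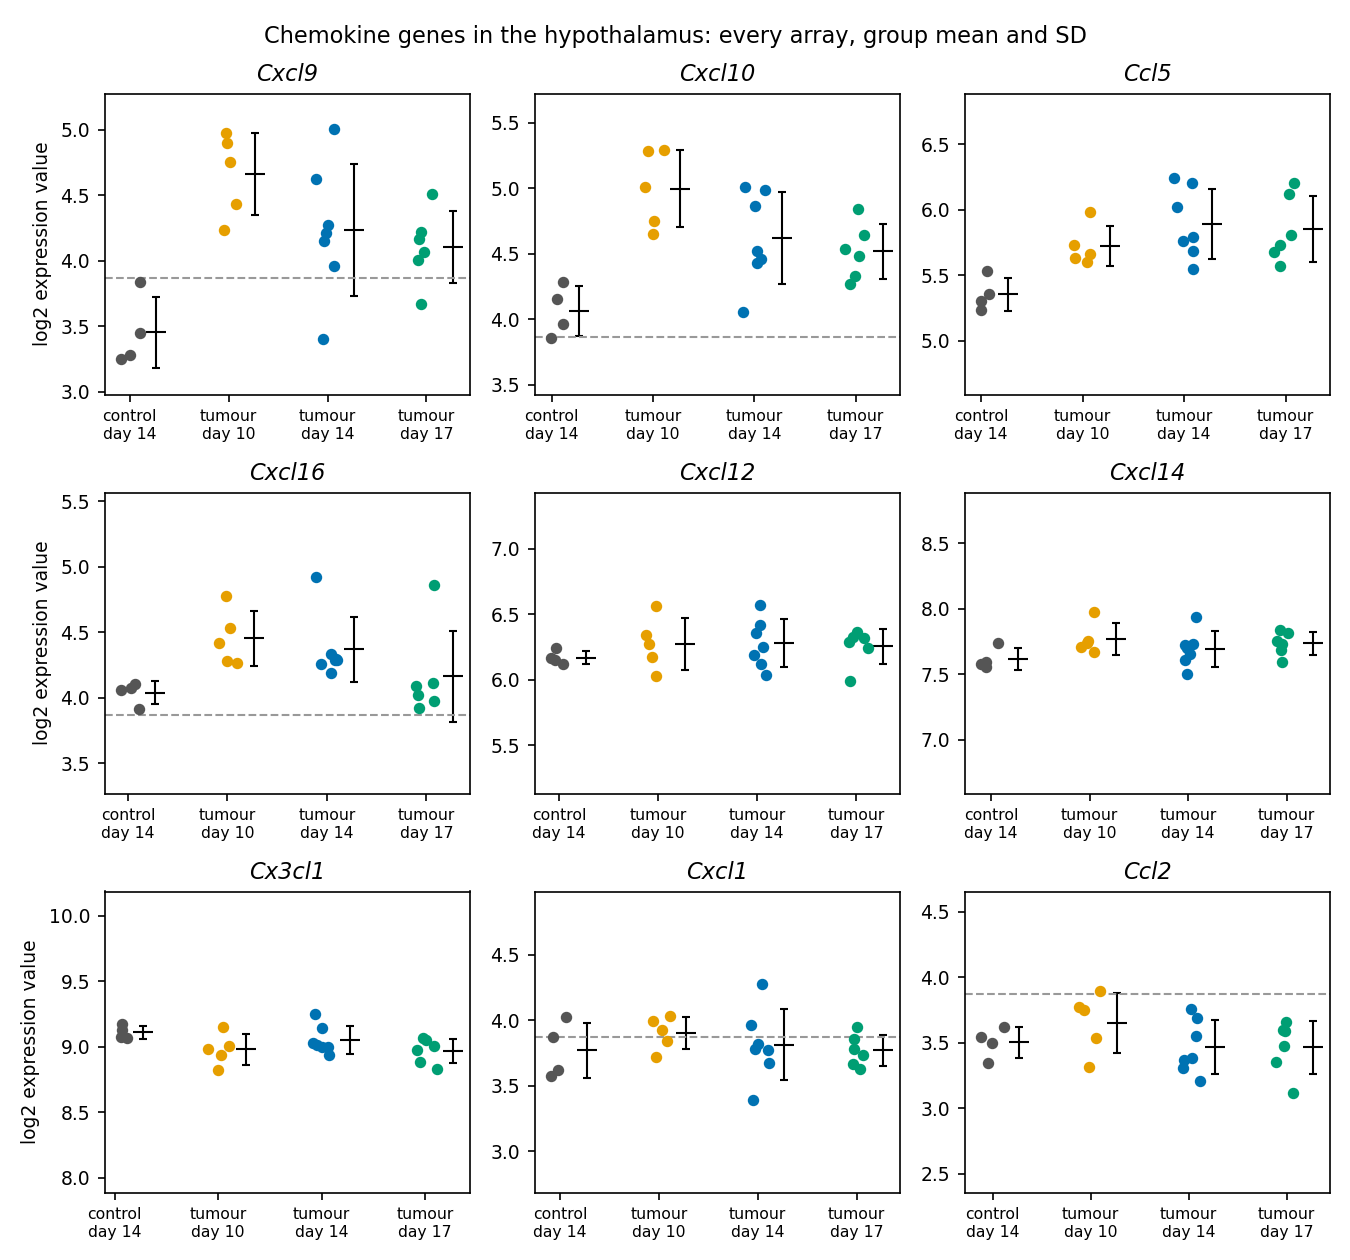
Log2 expression value of each chemokine gene on every array (points), by group, with the group mean and SD (black bars) and the background measure of 3.87 (dashed line, where in range). Each panel spans the same number of log2 units. All 5 tumour day 10 arrays lie above every control for Cxcl9, Cxcl10, Ccl5 and Cxcl16, and Cxcl1 and Ccl2 lie around or under the dashed line.

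Cxcl9 and Cxcl10 were higher on day 10 of tumour growth than in controls, and they were the 2 members that passed the test. The controls were taken on day 14, so in this comparison tumour and day cannot be told apart. In the 4 controls, Cxcl9 was 3.28, 3.45, 3.25 and 3.84. On the 5 arrays of tumour day 10 it was 4.24, 4.90, 4.43, 4.97 and 4.76. All 5 tumour values were above the highest control, and the controls were at or under background. Cxcl9 thus rose by 1.21 ± 0.23 (standard error, SE, of the fit; limma adjusted p = 0.0340). With the controls set at the background measure, the day 10 mean of 4.66 was at least 1.73-fold higher. Cxcl10 was 3.86, 4.28, 3.96 and 4.15 in controls and 4.75, 5.28, 5.01, 5.29 and 4.65 on day 10, again without overlap. It rose by 0.93 ± 0.17 (SE; limma adjusted p = 0.0325), a fold of 1.91 (95% interval 1.49 to 2.45). Of all genes, 0.101% were called higher on day 10 (19 of 18820), and 2.21% had every day 10 array above every control.

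On days 14 and 17 both genes stood closer to control and did not pass the test in the main fit. A model term for the replicate number, which the labels do not explain, called Cxcl9 on both days (limma adjusted p = 0.0324 and 0.0343). Cxcl10 was not called with it. Cxcl9 on day 14 had a lowest value of 3.40, a median of 4.21 and a highest of 5.01, and 6 of 7 arrays were above every control. Its change was 0.78 ± 0.21 (SE; limma adjusted p = 0.145), with a 95% interval of 0.34 to 1.22. Day 17 ran from 3.67 through a median of 4.12 to 4.51, with 5 of 6 arrays above every control and a change of 0.65 ± 0.22 (SE; limma adjusted p = 0.139; 95% interval 0.20 to 1.11). Cxcl10 followed the same order of group means, 4.06 ± 0.19 in controls, 5.00 ± 0.30 on day 10, 4.62 ± 0.35 on day 14 and 4.52 ± 0.21 on day 17 (SD, n = 4, 5, 7 and 6). It ran from 4.06 through 4.52 to 5.01 on day 14 and from 4.27 through 4.51 to 4.84 on day 17. Its changes were 0.55 ± 0.16 on day 14 and 0.45 ± 0.17 on day 17 (SE; limma adjusted p = 0.179 and 0.173). Day 14 replicate 6 was the lowest of its group for both genes, at 3.40 for Cxcl9 and 4.06 for Cxcl10, inside the range of the controls. Without that array, limma called 3 members on day 14: Cxcl9 (change 0.92, adjusted p = 0.0248), Cxcl10 (0.65, adjusted p = 0.0456) and Ccl5 (0.60, adjusted p = 0.0310). Of the 22 fits without 1 array, it was the only 1 that called any of these genes on day 14. The array was picked for its low values, and it was also the lowest of its group for Ccl5, at 5.55. Leaving it out therefore had to raise the day 14 changes of Cxcl9, Cxcl10 and Ccl5.

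Averaged over the 3 tumour groups, Cxcl9 rose by 0.88 ± 0.19 and Cxcl10 by 0.65 ± 0.14 (SE; limma adjusted p = 0.0341 and 0.0381). In this comparison 0.351% of all genes were called higher (66 genes), against 2 of the 9 members. The call of day 10 rested on few arrays: 0 members were called without control replicate 1, 2 or 3 or without tumour day 10 replicate 1, 2 or 4. It fell to 1 without day 10 replicate 3 or 5 or day 17 replicate 4. Over the 22 fits that left out 1 array, the day 10 change of Cxcl9 stayed between 1.13 and 1.33 and that of Cxcl10 between 0.86 and 1.02, with limma adjusted p up to 0.193 for both. For the mean of the tumour groups, 0 were called without control replicate 1, 2 or 3 or day 10 replicate 4, and 1 without day 10 replicate 2 or day 17 replicate 2 or 4.

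Thalamus marker levels and the order of the samples in the series were examined for the same 2 genes. With the mean of the thalamus markers in the model, the day 10 change of Cxcl9 was 1.09 and that of Cxcl10 was 0.82 (limma adjusted p = 0.146 and 0.130). Without the 4 arrays highest in these markers, which left 2 controls, the changes were 1.02 and 0.78 (limma adjusted p = 0.493 for both). Within the last 13 samples of the series, the changes were 1.21 for Cxcl9 and 0.85 for Cxcl10 (limma adjusted p = 0.311 and 0.304). The first 9 samples held 1 control and were not fitted alone. In these 3 fits the changes were thus 1.02 to 1.21 for Cxcl9 and 0.78 to 0.85 for Cxcl10. With all arrays they were 1.21 and 0.93. On day 10, 0 members were called in these 3 fits.

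**Figure D2:**
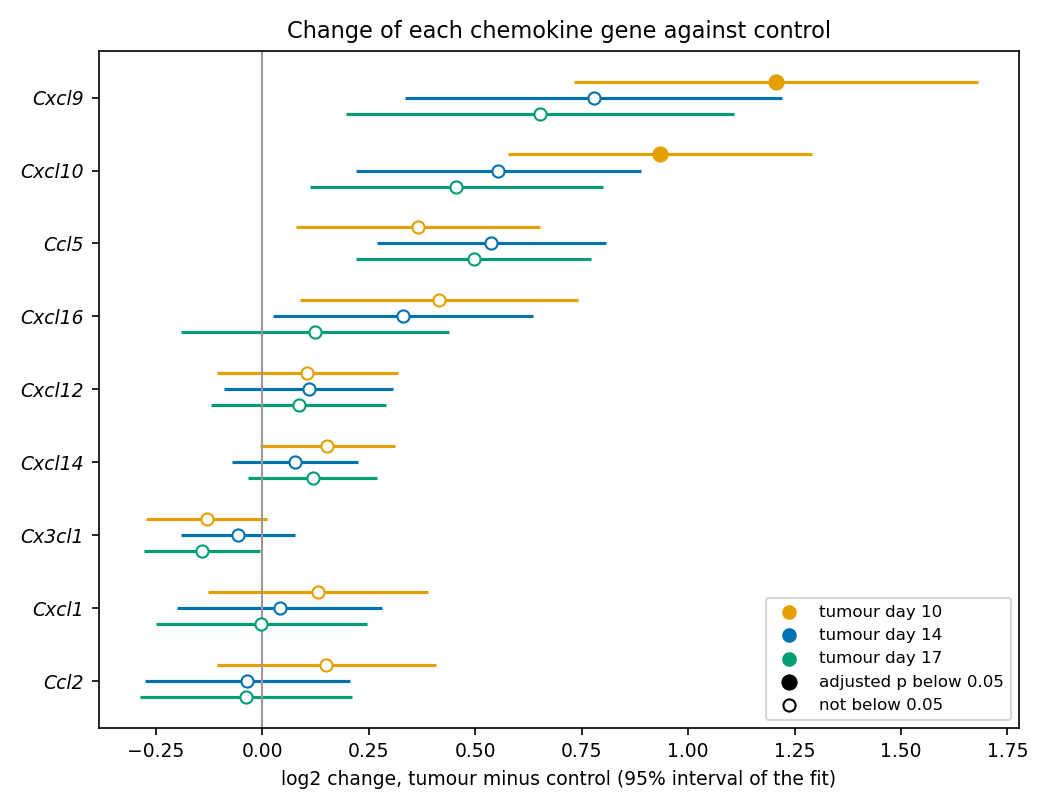
Log2 change of each chemokine gene, tumour minus control, on day 10 (orange), day 14 (blue) and day 17 (green), with the 95% interval of the limma fit. Filled circles mark an adjusted p below 0.05, reached by Cxcl9 (1.21) and Cxcl10 (0.93) on day 10 only, and Ccl5 lies between 0.37 and 0.54 on all 3 days.

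Ccl5 was the member whose tumour arrays were all above the controls on every day. Control values were 5.35, 5.30, 5.23 and 5.53, and those of day 10 were 5.73, 5.66, 5.60, 5.98 and 5.63. Day 14 ran from 5.55 through a median of 5.79 to 6.24, and day 17 from 5.57 through 5.77 to 6.20. The lowest of the 18 tumour arrays, at 5.55, was just above the highest control, at 5.53. Of all genes, 0.159% (30 genes) had all 18 tumour arrays above every control. The changes of Ccl5 were 0.37 ± 0.14 on day 10, 0.54 ± 0.13 on day 14 and 0.50 ± 0.13 on day 17 (SE; limma adjusted p = 0.357, 0.0884 and 0.0696), and none passed. The mean over the tumour groups was 0.47 ± 0.11 (SE; limma adjusted p = 0.0543; 95% interval 0.23 to 0.70). Ccl5 was called on day 17 under 5 of 17 other settings and without day 17 replicate 6 (change 0.55, limma adjusted p = 0.0360), so it lay close to the threshold. On day 14 it was called under 2 of 17 other settings (lowest limma adjusted p = 0.038, with the replicate term). The mean over the tumour groups was called under 6 of 16 other settings, without day 14 replicate 6 (0.49, limma adjusted p = 0.0322) and without day 17 replicate 6 (0.49, limma adjusted p = 0.0408). For Ccl5, these arrays were the lowest of their groups, at 5.55 and 5.57. Leaving either out had to raise the change, so the calls without them add no support.

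Cxcl16, the membrane-bound ligand of Cxcr6, was above every control on all day 10 and day 14 arrays but not on day 17. Controls were 4.06, 4.07, 4.11 and 3.91, and day 10 arrays were 4.42, 4.28, 4.26, 4.78 and 4.53. Day 14 ran from 4.19 through a median of 4.29 to 4.92, and day 17 from 3.92 through 4.05 to 4.86, where 2 of 6 arrays exceeded every control. Without day 17 replicate 3, the 4.86 array, the day 17 change of Cxcl16 was -0.01 in place of 0.12. The changes of 0.41 ± 0.16, 0.33 ± 0.15 and 0.12 ± 0.15 (SE, days 10, 14 and 17; limma adjusted p = 0.362, 0.439 and 0.724) did not pass. Another probe set, which the annotation gives to Cxcl16 together with Zmynd15, did not share the day 10 difference. It was 4.10 ± 0.16 in controls and 4.05 ± 0.16, 3.86 ± 0.18 and 3.98 ± 0.16 on days 10, 14 and 17 (SD, n = 4, 5, 7 and 6), and it was not tested. On day 14, 0.776% of all genes had every tumour array above every control, and Ccl5 and Cxcl16 were the members that did.

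Cx3cl1, the neuronal ligand of microglial Cx3cr1, was the member with the lowest changes. Controls were 9.07, 9.13, 9.17 and 9.07. Day 10 was 8.93, 9.003, 9.15, 8.82 and 8.99, and day 17 ran from 8.83 through 8.99 to 9.07. All 6 arrays of day 17 were below every control, although the highest of them and the lowest control both round to 9.07, and 3.3% of all genes had this arrangement. The changes were -0.13 ± 0.07 on day 10, -0.06 ± 0.06 on day 14 and -0.14 ± 0.07 on day 17 (SE; limma adjusted p = 0.514, 0.788 and 0.282). The 95% interval of day 17, -0.28 to -0.0049, bounds any fall in this gene to a fold of 0.82 or more.

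Cxcl12 and Cxcl14, the chemokines made without inflammation, differed little. Cxcl12 was 6.17 ± 0.05 in controls and 6.27 ± 0.20, 6.28 ± 0.18 and 6.25 ± 0.14 on days 10, 14 and 17 (SD, n = 4, 5, 7 and 6). Its 4 control values, 6.24, 6.15, 6.12 and 6.17, lay inside the tumour range of 5.99 to 6.57. Cxcl12 changes were 0.11, 0.11 and 0.09, with 95% intervals that reached at most 0.32. Cxcl14 was 7.62 ± 0.08 in controls and 7.77 ± 0.12, 7.69 ± 0.13 and 7.74 ± 0.09 on days 10, 14 and 17 (SD). Its change on day 10 was 0.15 ± 0.08 (SE; limma adjusted p = 0.484), and all 3 upper bounds of its intervals were at or under 0.31.

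Cxcl1 and Ccl2, the neutrophil and monocyte attractants, were not measurably higher at their level near background. Cxcl1 was 3.58, 4.02, 3.87 and 3.62 in controls, and the tumour arrays ran from 3.39 to 4.28. Ccl2 was 3.55, 3.50, 3.62 and 3.35 in controls, and the tumour arrays ran from 3.11 to 3.89. The groups overlapped for both genes on all 3 days. Cxcl1 changes were 0.13, 0.04 and 0.00, and those of Ccl2 were 0.15, -0.04 and -0.04, with limma adjusted p from 0.691 to 0.995. The sign of the smaller changes depended on the setting.

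Across the list, 2 of 9 genes were called higher and 0 lower on day 10, and 0 in either direction on days 14 and 17. The share of all genes called higher was 0.197% on day 14 (37 genes) and 0.436% on day 17 (82 genes). At an unadjusted p below 0.05 in either direction, 4 of the 9 members passed on each day, against 10.7%, 10.5% and 16.6% of all genes. Cxcl9, Cxcl10 and Ccl5 were higher on each day. The other was Cxcl16, higher, on days 10 and 14, and Cx3cl1, lower (-0.14), on day 17. The 9 genes were chosen with earlier results of these data known, so these shares do not test the list. The median change of the members was 0.15, 0.11 and 0.12 on days 10, 14 and 17, while the median of all genes was 0.00060, -0.0046 and -0.011. On day 17, 1.66% of all genes had every array above every control, as had Ccl5 among the members.

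No member was called between tumour days after adjustment over all genes. From day 10 to day 17, the change of Cxcl9 was -0.55 ± 0.21 (SE; limma adjusted p = 0.506; 95% interval -0.98 to -0.13). For Cxcl10 the change was -0.48 ± 0.16 (SE; limma adjusted p = 0.437; 95% interval -0.80 to -0.16). To day 14 the changes were -0.43 ± 0.20 for Cxcl9 and -0.38 ± 0.15 for Cxcl10 (SE; limma adjusted p = 0.684 and 0.601). Between days 14 and 17 they were -0.13 and -0.10. The changes of Ccl5 from day 10 were 0.17 ± 0.12 to day 14 and 0.13 ± 0.13 to day 17 (SE; limma adjusted p = 0.806 and 0.817), and their difference from those of Cxcl9 was not tested. Of all genes, 0.00531% (1 gene) were called between days 10 and 14, 0% between days 10 and 17 and 0% between days 14 and 17. Among the members, 0 were called by limma, with 2, 2 and 0 at an unadjusted p below 0.05. The passing of Cxcl9 and Cxcl10 on day 10 but not later therefore does not show that the days differed. A moderated F test over the 4 groups called 0.335% of genes (63) and 0 of the 9 members, with adjusted p = 0.0609 for Cxcl10, 0.0717 for Cxcl9 and 0.168 for Ccl5 (limma).

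Over single arrays, the 2 Cxcr3 ligands followed each other. Pearson's r between Cxcl9 and Cxcl10 over the 22 arrays was 0.92 (Spearman's rho 0.92), and it was 0.82 after each group was centred on its mean. Among 13018 genes, those most like Cxcl9 over the 22 arrays were Ifitm3 (r 0.93, and 0.85 within groups), Cxcl10 and Gbp2 (0.91, and 0.82 within groups). For Cxcl10 they were Cxcl9, Gbp2 (0.89, and 0.76 within groups) and Ifitm3 (0.86, and 0.69 within groups). Ifitm3 and Gbp2 are interferon-induced genes. Cxcl12 also followed Cxcl9 and Cxcl10 within groups (r 0.70 and 0.69), although its group means hardly differed. The arrays share tissue composition and processing, and these values are descriptions.

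**Figure D3:**
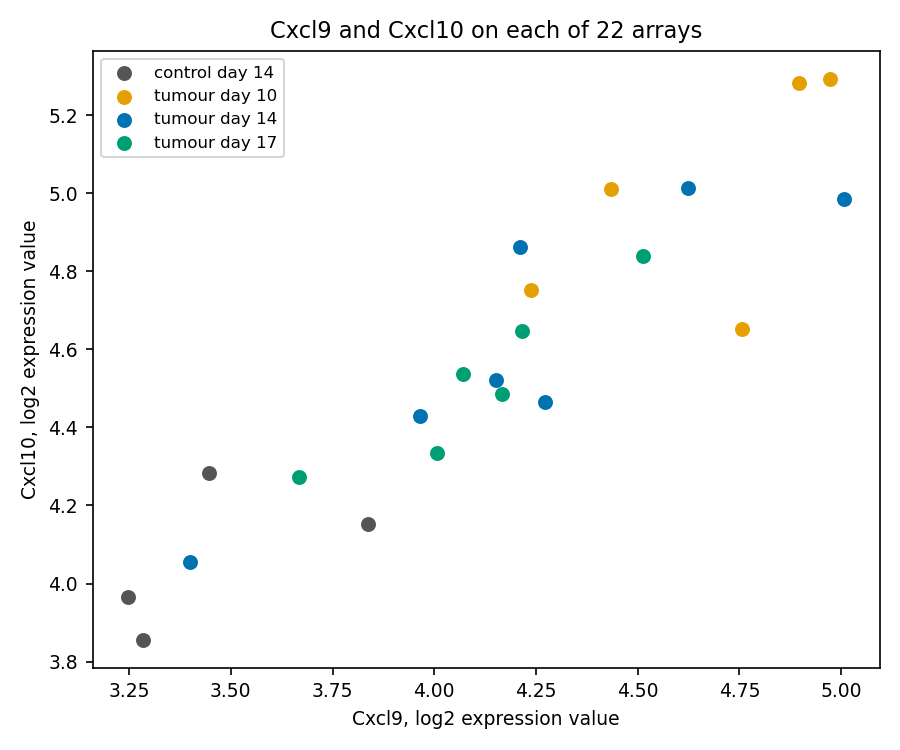
Log2 expression value of Cxcl10 against Cxcl9 on each of the 22 arrays, coloured by group. The arrays lie along a line (r 0.92), with the 4 controls, day 14 replicate 6 (3.40 and 4.06) and day 17 replicate 6 (3.67 and 4.27) at the lower left and day 10 arrays at the upper right.

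The other members had different companions. Ccl5 was most like Pglyrp1 (r 0.85, and 0.69 within groups), Lgals3bp (0.85, and 0.73) and Adgrl4 (0.83, and 0.65). Cxcl16 was most like Vcam1 (r 0.81, and 0.77 within groups), an adhesion molecule of activated endothelium, then Dock2 (0.76, and 0.66) and Ms4a6c (0.75, and 0.67). Cx3cl1 was most like Cntfr (r 0.87, and 0.86 within groups), Slc25a22 (0.86, and 0.89) and Dlg4 (0.82, and 0.83), the last encoding a postsynaptic scaffold protein. For Cxcl12 the genes were Aldh3b1 (0.80, and 0.83), Serpinb6b and Bmp5 (both 0.76, and 0.77). For Cxcl14 they were Pick1 (0.77, and 0.78), Gng2 (0.77, and 0.76) and Smim15 (0.76, and 0.82). For Cx3cl1, Cxcl12 and Cxcl14 the values within groups were near the overall ones.

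The receptors gave no called change. Of 23 listed chemokine receptor genes 21 were measured, 6 had a mean above background, and 0 were called higher or lower on any of the 3 days. Cxcr3, the receptor of Cxcl9 and Cxcl10, was not above background (3.81 in controls) and changed by -0.16, -0.14 and -0.08 on days 10, 14 and 17. Cx3cr1, the receptor of Cx3cl1, stood at 6.90 in controls and changed by 0.07, 0.00 and -0.02. Cxcr4 and Ackr3, the receptors of Cxcl12, stood at 4.55 and 4.32 in controls, and Cxcr4 changed by -0.30, -0.20 and -0.05. Ccr2, the receptor of Ccl2, was below background at 2.76, with changes of 0.31, 0.29 and 0.16. Ccr1 and Ccr3, which bind Ccl5, and Cxcr2, which binds Cxcl1, were also below it. Cxcr6, the receptor of Cxcl16, had the smallest receptor p on day 14 (0.25 ± 0.06, SE; limma adjusted p = 0.118) and lay below background. Ackr1, a scavenging receptor of venules, was next, with 0.32 ± 0.10 on day 17 (SE; limma adjusted p = 0.114).

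The other chemokine ligands showed no called member either. Of 28 listed, 26 were measured, 12 were above background and 0 were called. Positive changes were seen in 21, 19 and 19 of the 26 on days 10, 14 and 17, with list medians of 0.06, 0.09 and 0.07. The share of all genes with a positive change was 50.3%, 48% and 46.3%. Ccl17, a ligand of Ccr4, stood at 5.50 in controls and 6.12 on day 17 (change 0.62 ± 0.16, SE; limma adjusted p = 0.0628). Ccl12 changed by 0.30 ± 0.09 on day 10 (SE; limma adjusted p = 0.225) from 2.91, under background. Cxcl11, the other Cxcr3 ligand, was also under background, at 3.02 in controls. Adam10, Adam17 and Dpp4, enzymes that cleave chemokines, gave 0 calls; Adam17 changed by -0.15 ± 0.06 and Dpp4 by 0.29 ± 0.21 on day 17 (SE; limma adjusted p = 0.240 and 0.494).

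Among the pathways upstream of these genes, 1 gene was called. Il1r1, the signalling receptor of interleukin 1, stood at 5.23 in controls and 6.15, 6.14 and 6.01 on days 10, 14 and 17. It rose by 0.91 ± 0.18, 0.91 ± 0.17 and 0.78 ± 0.17 (SE; limma adjusted p = 0.0410, 0.0148 and 0.0302). It was the only one of 17 measured genes of interleukin 1, tumour necrosis factor and NF-kappaB signalling to pass on any of these days, and the list medians were 0.14, 0.13 and 0.07. Leaving out 1 array at a time, Il1r1 was called in 10, 19 and 15 of 22 fits on days 10, 14 and 17, with changes of 0.74 to 0.99. The Il1r1 call was lost on all 3 days without control replicate 1, 2 or 3. On day 10 it was also lost without day 10 replicate 1, 2, 4 or 5, day 14 replicate 2 or day 17 replicate 3, 4, 5 or 6, and on day 17 without day 17 replicate 1, 3, 4 or 5. In the 3 fits with the thalamus covariate, without the 4 arrays highest in thalamus markers and in the last 13 samples alone, it was not called on any day. Of 15 measured interferon signalling genes, 0 were called. Their medians were 0.13, 0.03 and 0.02, with 13, 8 and 8 of 15 changes positive, against 50.3%, 48% and 46.3% of all genes. Irf7, an interferon-induced transcription factor, changed by 0.40 ± 0.11 on day 14 and 0.40 ± 0.12 on day 17 (SE; limma adjusted p = 0.150 and 0.0918). Ifng itself was below background, at 3.56 in controls, with a change of 0.26 ± 0.08 on day 10 (SE; limma adjusted p = 0.252).

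**Figure D4:**
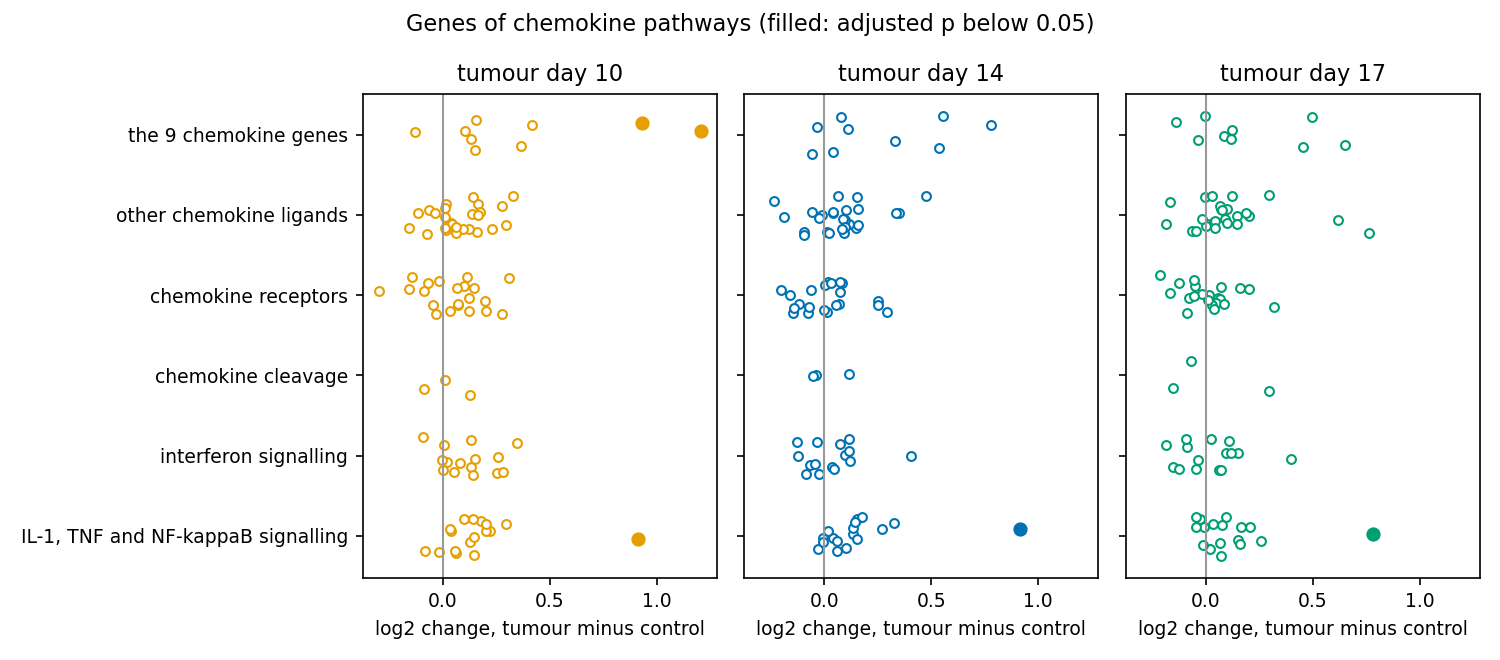
Log2 change, tumour minus control, of each measured gene of the 9 chemokines and of 5 lists of related genes, on days 10, 14 and 17. Filled points have a limma adjusted p below 0.05 and are Cxcl9 and Cxcl10 on day 10 and Il1r1 (0.91, 0.91 and 0.78) on all 3 days.

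Markers of cells that make or answer these chemokines moved with the groups to different degrees. The 10 T and NK cell markers had a mean of 3.21 to 3.31 in controls, 3.35 to 3.61 on day 10, 3.27 to 3.61 on day 14 and 3.35 to 3.50 on day 17. The ranges of days 10 and 17 did not overlap that of the controls, but only 1 of the 10 genes was above background and 0 were called. The 5 measured of 8 neutrophil and monocyte markers were all below background, with means of 2.99 to 3.05 in controls, 3.09 to 3.39 on day 10, 2.96 to 3.33 on day 14 and 3.17 to 3.45 on day 17. Here too days 10 and 17 did not overlap the controls, all 5 changes were positive on each day, and 0 were called. Of all genes, 50.3%, 48% and 46.3% had a positive change on days 10, 14 and 17. How often other lists show such a gap was not tested. B cell markers, with 3 of 4 measured and 0 above background, had 1 positive change on each day (medians -0.08, -0.14 and -0.20). Perivascular macrophage markers had 5, 2 and 1 of 5 changes positive (medians 0.12, -0.02 and -0.06). Microglia markers overlapped between control (6.07 to 6.12) and tumour arrays (5.91 to 6.22), as did brain endothelium (6.91 to 7.06 and 6.88 to 7.34) and meningeal fibroblast markers (5.65 to 6.04 and 5.36 to 6.75). Red cell markers were 4.01 to 5.00 in controls, 4.82 to 5.78 on day 10, 4.99 to 6.22 on day 14 and 5.63 to 6.86 on day 17, the last wholly above the controls. Of 3 measured red cell genes, Alas2 and Slc4a1 were called on days 14 and 17 (2.03 and 1.69, then 2.42 and 2.10; limma adjusted p = 0.00738 and 0.0288, then 0.00128 and 0.00372). Neuron markers, set here beside Cx3cl1, had negative changes in 4 of 4 genes on each day (medians -0.087, -0.071 and -0.064), and 0 were called. Ependyma markers were 5.65 to 5.86 in controls and 5.30 to 5.57 on day 17, when Tmem212 fell by 0.41 (limma adjusted p = 0.0264). Of these lists, 3 were entered as a covariate.

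With the brain endothelium marker mean in the model, the day 10 changes were 1.08 for Cxcl9 and 0.84 for Cxcl10, and both stayed called (limma adjusted p = 0.0263). With the meningeal fibroblast mean they were 1.01 and 0.84 (limma adjusted p = 0.0699 and 0.0914). With the T and NK cell mean they were 1.03 and 0.88 (limma adjusted p = 0.471 and 0.409). With the T and NK cell mean, the changes of Ccl5 were 0.08, 0.32 and 0.27 on days 10, 14 and 17, against 0.37, 0.54 and 0.50 without it (limma adjusted p = 0.917, 0.369 and 0.305). The day 10 change of Cxcl16 with that list was 0.12, against 0.41 without it, and it was called in neither fit. The T and NK cell mean itself moved with the groups, and only 1 of its 10 genes was above background. With this covariate, a difference between groups and a difference in these markers therefore cannot be told apart. The part of red cell, neuron, ependyma, microglia and leukocyte content in these results was otherwise not tested.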

How the data were processed

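The authors deposited log2 values made with RMA, per the submitters' processing notes. RMA's version, the annotation and the genome build are not given in the sources used here. In all, the table held 35556 probe sets, of which the platform annotation gave 21218 to 1 gene and 1881 to several, and 12457 were unnamed here. An Entrez identifier was found in RefSeq (GRCm38.p6) for 21185 probe sets, and 0 symbols changed. For each of 18820 genes, the probe set of highest mean on the 22 arrays was used, with no filter on low values.

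For all genes together, 4 group means were estimated with limma 3.58.1 in R 4.3.3 (eBayes, no trend). Two-sided tests were adjusted over all genes by Benjamini-Hochberg, and a gene was called at an adjusted p below 0.05. The fit was tested on simulated data. The labels describe mice housed singly but do not tie arrays to animals, so p-values measure the spread between these samples, and their number limits the precision. The 9 genes, the gene lists and the tests were chosen with earlier results of these data known.

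All 9 members were named. Per pathway list, the text named up to 4 genes called against control on a single day, or otherwise the 2 with the smallest p; Il1r1 was the only gene named as called. For each member above background, the 3 genes of highest Pearson r were named, leaving out predicted genes, small RNAs and receptors of smell. Receptors of the members, Cxcl11 and Adam10 are named beside that rule. Alternatives changed the moderation, weights, scaling, filter, probe set rule, samples and threshold, and added a replicate block, a term for the first 9 against the last 13 samples (a split the labels do not state) or a thalamus covariate. Covariates from 3 other marker lists, and all alternatives for the pathway lists, were chosen after seeing the data.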

Additional observations from a re-analysis of the deposited data

Results flagged for a closer look

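In 4 cases of 36 groups of arrays examined, the highest or lowest array of a group stood apart from the rest by a gap above Dixon's 95% limit, and chance gives about 1 such case in 20 groups. Cxcl16 was 4.92 in tumour day 14 replicate 1, the highest of 7 arrays, and 4.86 in tumour day 17 replicate 3, the highest of 6. Cxcl14 was 7.98 in tumour day 10 replicate 1, the highest of 5 arrays. Cxcl12 was 5.99 in tumour day 17 replicate 6, the lowest of 6 arrays.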

How the results depend on the processing

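Cxcl9, Cxcl10 and Ccl5 kept their positive sign in the 22 fits without 1 array and in each of the other alternatives (17 for a single day, 16 for the tumour mean), while their calls did not hold in all of them. For day 10 the count of members called was 1 after a second quantile normalization. It was 0 in the last 13 samples alone, with the thalamus covariate, without the 4 arrays highest in thalamus markers, and with the meningeal fibroblast or T and NK cell covariate. For the mean of the tumour groups it was 0 in the last 13 samples alone, with the thalamus, brain endothelium or T and NK cell covariate and without the 4 arrays, and 1 with the meningeal covariate. It was 3, with Ccl5 added, under a trend, array weights, centring, the filter on background, the replicate block and at an adjusted p below 0.10. On day 14 it was 1 with an intensity trend and at an adjusted p below 0.10. On day 17 it was 1 with an intensity trend, array weights, median centring, the filter on background and at 0.10. Without 1 array, the counts ran from 0 to 2 on day 10, from 0 to 3 for the mean and on day 14 and from 0 to 1 on day 17.

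The replicate block gave 2 members called on day 14 (limma adjusted p = 0.0324 for Cxcl9 and 0.0380 for Ccl5) and 2 on day 17 (0.0343 and 0.0328), against 0 without it, and 2 genes of the pathway lists on day 17. The labels give the numbers no meaning. Same-numbered arrays of different groups gave correlations of -0.19 to 0.35 (median 0.12, 15 of 28 above 0.1). An array correlated best with its own number in 23 of 56 comparisons with another group, and the count expected by chance was not computed. The main fit did not treat the arrays as paired. Whether some of them were paired cannot be told from these values.

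The count of pathway genes called, 1 on each day, was 0 in the last 13 samples alone, with the thalamus or T and NK cell covariate and without the 4 arrays on all 3 days. It was also 0 with the meningeal covariate on day 10, in the groups compared alone on day 14 and with the endothelium covariate on day 17. It was 2 with array weights on day 10. On day 17 it was 2 with a trend, centring or the filter, and 3 with array weights or at 0.10. Without 1 array it ran from 0 to 1 on days 10 and 14 and from 0 to 2 on day 17.

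Signs turned only in changes close to 0 that were not called. Ccl2 on day 14 became 0.011 with array weights, 0.0080 with the order term, 0.11 in the last 13 samples, 0.088 without the 4 arrays, 0.026 with the T and NK cell covariate and -0.087 to 0.0072 without 1 array. Ccl2 on day 17 became 0.022 with the order term, 0.085 in the last 13, 0.016 without the 4, 0.025 with the T and NK cell covariate and -0.091 to 0.031 without 1 array. Ccl2 over the tumour mean became -0.032 after the second quantile normalization, -0.025 with the block and -0.027 to 0.065 without 1 array. Cxcl1 on day 14 became -0.042 with array weights, -0.037 in the last 13, -0.0090 without the 4, -0.036 with the T and NK cell covariate and -0.037 to 0.12 without 1 array. Cxcl1 on day 17 became 0.031 with centring, 0.017 with the order term, 0.025 in the last 13, 0.0030 with the thalamus covariate and -0.067 to 0.081 without 1 array. Cxcl1 over the mean became -0.0086 with weights, -0.029 with the T and NK cell covariate and -0.0083 to 0.14 without 1 array. Cxcl16 on day 17 became -0.0041 in the last 13, -0.082 and -0.11 with the endothelium and T and NK cell covariates and -0.015 to 0.17 without 1 array. Cxcl12 with the endothelium covariate became -0.017 on day 14, -0.078 on day 17 and -0.021 over the mean. The cause of these shifts was not tested. Cxcl1, Ccl2 and the controls of Cxcl9 lie near background, which limits what their changes can show.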
